A study of Homo sapiens with 12 samples.

Results

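Antigen presentation on MHC class II depends on a small set of regulators and helper proteins, and 10 of their genes are described here in mantle cell lymphoma cells after induced knockdown of NIK. The genes were taken by name, as the class II transactivator CIITA, the RFX subunits RFX5, RFXANK and RFXAP, the peptide editors HLA-DMA and HLA-DMB, their modulators HLA-DOA and HLA-DOB, and the lysosomal proteases CTSS and CTSH. The array held 21 probe sets that named 1 of them alone, out of 54675 probe sets, and all 10 genes were among the 11548 genes tested out of 19775 with a symbol. Of the 21 probe sets, 17 passed the filter on low signal, a mean over the 12 arrays of at least 12.55.

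The RFX complex sits on the X box of class II promoters together with factors of the CREB family, NF-Y binds the neighbouring Y box, and CIITA has no DNA binding of its own but is recruited by this platform and turns the promoter on. In lysosome-like compartments CTSS cuts the invariant chain down to the CLIP fragment, HLA-DM (HLA-DMA with HLA-DMB) exchanges CLIP for peptide, and HLA-DO (HLA-DOA with HLA-DOB) restrains HLA-DM, mainly in B cells. CTSH is a lysosomal aminopeptidase. Inherited loss of CIITA or of any RFX subunit gives bare lymphocyte syndrome, in which class II molecules are missing from the cell surface.

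Both lines, Z-138 and Maver-1, are established human cells from mantle cell lymphoma, which arises from B lymphocytes. Per the labels every Z-138 culture carries a TRAF2 nonsense change and every Maver-1 culture a TRAF3 deletion, control cultures included. In each line, puromycin-selected cells held a doxycycline-inducible hairpin against MAP3K14, the gene of NIK, in the versions NIKsh#1 and NIKsh#2, or a non-targeting control hairpin (NTC), and grew for 7 days with 100 or 0 ng/ml doxycycline. This gave 6 cultures and 12 arrays: 4 NIKsh arrays with doxycycline and the 4 untreated arrays of the same cultures, and 2 NTC arrays with doxycycline and their 2 untreated arrays. A hairpin was thus represented by 1 culture per line, and the labels do not say whether a culture was 1 clone or a pool, so the p-values reflect no more than how far these particular cultures vary. In bulk RNA, fewer cells expressing a gene and less RNA per cell cannot be told apart.

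MAP3K14 had signals of 33.3 and 49.2 in Z-138 NIKsh#1 and NIKsh#2 with doxycycline, against 55.2 and 52.0 untreated. In Maver-1 NIKsh#1 and NIKsh#2 it had 63.4 and 55.7 with doxycycline, against 86.9 and 79.3 untreated. In NTC it had 55.4 with doxycycline, against 46.4 untreated, in Z-138, and 132.7 against 77.2 in Maver-1. It was lower in 4 of 4 NIKsh cultures, at 0.603 of the untreated signal in Z-138 NIKsh#1 but 0.946 in Z-138 NIKsh#2, and at 0.73 and 0.702 in Maver-1. It did not pass in limma (log2 change -0.42 ± 0.18, adjusted p = 0.529). For ACTB the 3'/5' signal ratio, a sign of RNA integrity, lay between 2.326 and 6.884, and every Z-138 culture, NTC included, had the higher ratio on its doxycycline array. Of 6 B cell markers, 5 had a probe set of their own and all 5 lay above the filter in both lines, as did CCND1 and SOX11, defining genes of mantle cell lymphoma. The T cell markers CD3D, CD3E and CD2 and the myeloid markers CD14, CSF1R and FCGR1A stayed at signals of 8.3 or less on every array, and LYZ, also myeloid, reached 25.3. Z-138 arrays averaged a CD3G signal of 121 and Maver-1 arrays 4.03. PECAM1, listed for endothelium, averaged 210 on Z-138 arrays and 688 on Maver-1 arrays, while the endothelial genes CDH5 and VWF did not exceed 4.6. Summed over the endothelial list the signal was 50.8 to 654.2 in NIKsh with doxycycline, against 206.0 to 708.7 untreated, and 403.3 to 935.9 in NTC with doxycycline, against 240.6 to 737.3 untreated. The part of these markers in the results was not tested.

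The main comparison asked which members differed between doxycycline-treated and untreated NIKsh cultures. Log2 changes below are the doxycycline array minus its untreated partner on log2(signal + 3), a scale that understates changes of dim genes. By limma, none of the 10 members passed an adjusted p of 0.05 (count 0, where 0.0433% of all tested genes passed), and 8 members had an unadjusted p under 0.05 with a negative change, against 4.30% of all genes. The same 8 members, all but RFXAP and CTSS, were lower in 4 of 4 NIKsh cultures, against 8.29% of all genes. The median change over the members was -0.48, against 0.01 over all genes. In Z-138 the median was -0.70 with NIKsh#1 and -0.46 with NIKsh#2, against 0.004 with NTC. In Maver-1 it was -0.36 with NIKsh#1 and -0.25 with NIKsh#2, against 0.01 with NTC.

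**Figure D1:**
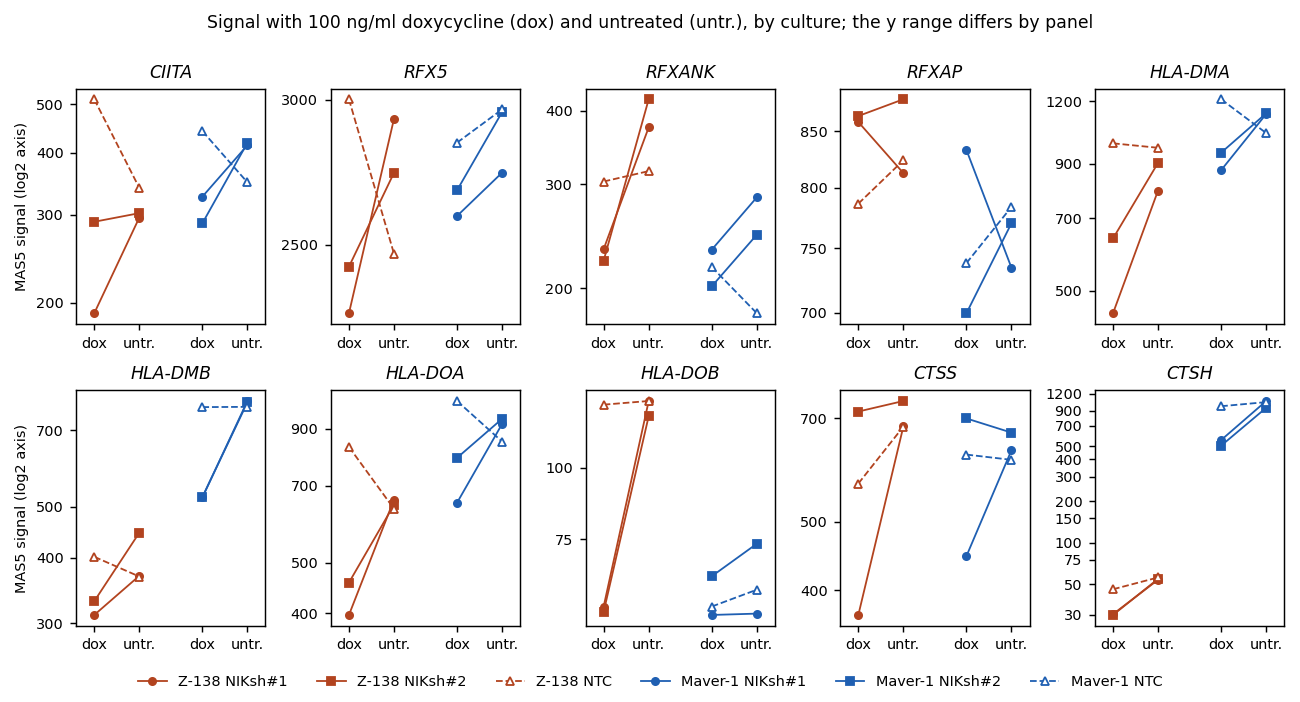
Signal of each member in all 12 arrays, on a log2 axis whose range differs by panel, with each doxycycline-treated array left of the untreated array of the same culture and a line joining the pair (solid for NIKsh, dashed for NTC). In CTSH all 4 NIKsh lines run lower on the doxycycline side and the lines Z-138 and Maver-1 stand far apart, while in HLA-DOB only the Z-138 NIKsh pairs separate widely.

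CIITA, the master regulator of class II transcription (chr16:10866206-10943021, GRCh38.p14), had signals of 190.6 and 290.6 in Z-138 NIKsh#1 and NIKsh#2 with doxycycline, against 296.3 and 302.4 in the same cultures untreated. In Maver-1 NIKsh#1 and NIKsh#2 it had 326.3 and 288.6 with doxycycline, against 413.7 and 418.4 untreated. In the NTC cultures it had 511.3 with doxycycline, against 339.7 untreated, in Z-138, and 441.4 against 348.5 in Maver-1. The direction was thus opposite in the 2 sets of cultures: lower with doxycycline in 4 of 4 NIKsh cultures, though by 0.06 in Z-138 NIKsh#2, and higher in both NTC cultures. The NIKsh change was -0.39 ± 0.13 (SE of the limma model here and below, 95% interval -0.69 to -0.09, adjusted p = 0.410), and the NTC change 0.46 ± 0.19 (adjusted p = 0.895, 2 cultures). The difference between them, NIKsh minus NTC, was -0.85 ± 0.23 (interval -1.37 to -0.33, adjusted p = 0.876), and each of the 4 NIKsh values was under both NTC values (two-sided p = 0.0667 in an exact permutation test, which can give no smaller p here). The doxycycline-treated NTC arrays were the 2 highest of the 12, and the NTC change, 0.46 on the log2 scale, is part of that difference.

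The CIITA values rest on 1 of its 3 probe sets. The bright one had a mean signal of 347.3. Of the dim ones, the first had a mean of 6.317 and reached 11.3 at most, and the other had a mean of 2.592 and reached 8.3, so both stayed under the filter on every array and were not tested. Between them the dim probe sets showed no common direction: the first was lower with doxycycline in 3 of 4 NIKsh cultures and the other in 0 of 4. Averaging all 3 on the log2 scale gave a NIKsh change of 0.03 in place of -0.39.

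Among the RFX subunits, RFXANK had the largest NIKsh change. RFXANK, the ankyrin repeat subunit (chr19:19192258-19201866), had signals of 233.1 and 222.9 in Z-138 NIKsh#1 and NIKsh#2 with doxycycline, against 374.9 and 418.4 untreated. In Maver-1 NIKsh#1 and NIKsh#2 it had 232.6 and 201.6 with doxycycline, against 285.3 and 246.6 untreated. The NTC cultures had 303.5 with doxycycline, against 316.1 untreated, in Z-138, and 217.4 against 181.5 in Maver-1. Over NIKsh cultures the change was -0.54 ± 0.15 (interval -0.87 to -0.21, adjusted p = 0.270), the NTC change 0.10 ± 0.21 and the difference -0.64 ± 0.26 (adjusted p = 0.884). In Maver-1 the doxycycline-treated arrays of NIKsh and NTC overlapped. Untreated NIKsh cultures had more RFXANK signal than the untreated NTC culture of their line, with a difference of 0.43 ± 0.13 (unadjusted p = 0.00512, adjusted p = 0.948), and these untreated arrays also enter the NIKsh change. By limma, 0 members and 0 genes in all (0.0%) passed in that untreated comparison, with 552 genes (4.78%) at an unadjusted p under 0.05, among which RFXANK was the 1 member.

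RFX5, the subunit that contacts DNA (chr1:151340640-151347252), had the smallest of the negative changes. Its brighter probe set had 2292.9 and 2431.4 in Z-138 NIKsh#1 and NIKsh#2 with doxycycline, against 2929.4 and 2736.8 untreated, and 2591.8 and 2677.2 in Maver-1 NIKsh#1 and NIKsh#2, against 2737.2 and 2954.3 untreated. The NTC values were 3002.2 with doxycycline, against 2471.1 untreated, in Z-138 and 2842.6 against 2964.2 in Maver-1. The change was -0.19 ± 0.07 in NIKsh (adjusted p = 0.453) and -0.30 ± 0.12 relative to NTC (adjusted p = 0.884). In Maver-1 the changes were -0.079 and -0.142 in NIKsh, against -0.06 in NTC, while Z-138 NTC stood at 0.281. Without 1 culture the difference from NTC ranged from -0.467 to -0.126, the latter without Z-138 NTC. The dimmer RFX5 probe set gave -0.23 ± 0.14 and was lower in 3 of 4 NIKsh cultures.

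RFXAP, the third subunit (chr13:36819222-36829104), had no common direction. Its bright probe set had 858.3 and 863.8 in Z-138 NIKsh#1 and NIKsh#2 with doxycycline, against 812.7 and 879.4 untreated, and 833.0 and 699.7 in the Maver-1 cultures of these hairpins, against 734.5 and 770.4 untreated. In NTC it had 786.6 with doxycycline, against 823.9 untreated, in Z-138, and 738.2 against 783.9 in Maver-1. For NIKsh the change was 0.02 ± 0.09, with an interval of -0.18 to 0.23. The second RFXAP probe set, with a mean signal of 16.8 close to the filter, gave -0.32 ± 0.21. A difference in size between the 3 subunits was not tested.

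The HLA-DM and HLA-DO genes lie in the class II region of chromosome 6, HLA-DMA at chr6:32948618-32953097, HLA-DMB at chr6:32934636-32941028, HLA-DOA at chr6:33004182-33009591 and HLA-DOB at chr6:32812763-32817002. Their promoters are shown because the X and Y boxes of class II promoters are where RFX and NF-Y bind, and the brightest probe sets of these 4 genes had negative NIKsh changes. Promoters came from RefSeq (GRCh38.p14), where 8 of the 10 members had an entry (CIITA and CTSS had none), and the 250 bases before each start were searched on both strands for TGATGATG, GATTGG and AGCAACAG, letters picked after reading these promoters. GATTGG holds the inverted CCAAT core of the Y box. TGATGATG lies upstream of it in HLA-DMA, HLA-DMB, HLA-DOB and HLA-DRB1, a class II beta chain added for comparison, and AGCAACAG in HLA-DOA. A match is a description of these letters and not a measured binding site. The stretches below run 5′ to 3′ on the gene's strand (minus for all 5), with the searched letters in capitals.
HLA-DMA, chr6:32953162-32953216: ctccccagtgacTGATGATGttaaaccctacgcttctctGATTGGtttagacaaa
HLA-DMB, chr6:32941035-32941122: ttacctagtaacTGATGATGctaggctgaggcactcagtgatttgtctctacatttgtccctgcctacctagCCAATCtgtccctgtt
HLA-DOB, chr6:32817086-32817138: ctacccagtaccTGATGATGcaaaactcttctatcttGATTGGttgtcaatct
HLA-DOA, chr6:33009644-33009704: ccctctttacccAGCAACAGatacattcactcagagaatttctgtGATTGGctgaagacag
HLA-DRB1, chr6:32589880-32589933: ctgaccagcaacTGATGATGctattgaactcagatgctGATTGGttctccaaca

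Of 35116 promoter windows, 0.795% held TGATGATG, 14.1% held GATTGG and 1.31% held AGCAACAG on either strand. TGATGATG followed by GATTGG on the gene's strand, 5 to 40 bases apart, occurred in 5 windows, those of HLA-DMA, HLA-DOB, HLA-DRB1, THBS3 and ARHGEF12. Since the letters were picked after reading the member promoters, finding members among these windows is no test. The gap was 19 bases in HLA-DMA, 17 in HLA-DOB and 18 in HLA-DRB1. In HLA-DMB GATTGG lay on the other strand, 52 bases on, and in HLA-DOA it followed AGCAACAG after 25 bases. The HLA-DOA gap is counted from other letters, so it cannot be set beside the gaps from TGATGATG. The HLA-DMB stretch also holds gatttg, 1 base off GATTGG, on the gene's strand and nearer to TGATGATG. Which of these letters in HLA-DMB are the Y box was not tested. None of the 3 patterns occurred in the windows of RFXANK, RFXAP or CTSH, and 1 of 3 RFX5 windows held GATTGG.

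HLA-DMA, the alpha chain of the editor, had signals of 451.2 and 637.1 in Z-138 NIKsh#1 and NIKsh#2 with doxycycline, against 795.0 and 903.4 untreated. In Maver-1 NIKsh#1 and NIKsh#2 it had 873.2 and 946.7 with doxycycline, against 1131.8 and 1135.3 untreated. In NTC it had 988.4 with doxycycline, against 968.3 untreated, in Z-138, and 1211.3 against 1036.3 in Maver-1. Every treated NIKsh array lay below its untreated partner and below both arrays of the NTC culture of its line. In Z-138 the untreated NIKsh arrays, at 795.0 and 903.4, also lay below both NTC arrays. In Maver-1 the untreated NIKsh arrays lay between the NTC arrays. The NIKsh change was -0.49 ± 0.11 (interval -0.72 to -0.25, adjusted p = 0.204), against 0.13 ± 0.15 in NTC, a difference of -0.61 ± 0.18 (adjusted p = 0.876).

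HLA-DMB, the beta chain, had 311.0 and 330.3 in Z-138 NIKsh#1 and NIKsh#2 with doxycycline, against 369.3 and 446.2 untreated, and 520.8 and 521.7 in Maver-1 NIKsh#1 and NIKsh#2, against 795.1 and 790.6 untreated. In NTC it had 401.4 with doxycycline, against 368.1 untreated, in Z-138, and 774.1 against 774.9 in Maver-1. In Maver-1 the 2 treated NIKsh arrays were nearly equal and stood apart from the other 4 arrays, which spanned 774.1 to 795.1. Over NIKsh cultures the change was -0.47 ± 0.11 (interval -0.72 to -0.22, adjusted p = 0.205) and the difference from NTC -0.53 ± 0.19 (adjusted p = 0.884).

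HLA-DOA, the alpha chain of the modulator, had 397.2 and 457.8 in Z-138 NIKsh#1 and NIKsh#2 with doxycycline, against 659.0 and 644.3 untreated, and 650.0 and 791.5 in Maver-1 NIKsh#1 and NIKsh#2, against 918.5 and 939.3 untreated. In NTC it had 830.3 with doxycycline, against 632.7 untreated, in Z-138, and 1015.6 against 849.9 in Maver-1. As for CIITA, both NTC values were higher with doxycycline, and within each line the treated NTC array was the highest of 6. The NIKsh change was -0.49 ± 0.10 (adjusted p = 0.204), the NTC change 0.32 ± 0.15 (adjusted p = 0.895) and the difference -0.81 ± 0.18 (interval -1.22 to -0.41, unadjusted p = 0.00113, adjusted p = 0.805). A second HLA-DOA probe set, with a mean signal of 26.96, gave -0.40 ± 0.20 and was lower in 4 of 4 NIKsh cultures. The third that passed the filter, at a mean of 15.75, gave -0.12 ± 0.46 with changes from -1.78 to 1.43, and 2 more stayed under it.

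HLA-DOB, the beta chain, gave different values in the lines. In Z-138 NIKsh#1 and NIKsh#2 it had 57.3 and 56.1 with doxycycline, against 130.6 and 122.9 untreated. In Maver-1 NIKsh#1 and NIKsh#2 it had 55.4 and 64.7 with doxycycline, against 55.7 and 73.7 untreated. The NTC values were 128.7 with doxycycline, against 130.6 untreated, in Z-138 and 57.3 against 61.3 in Maver-1. The treated Z-138 NIKsh arrays thus reached the range of Maver-1 (55.4 to 73.7), while the other 4 Z-138 arrays stayed between 122.9 and 130.6. Over all 4 NIKsh cultures the change was -0.61 ± 0.22 (adjusted p = 0.443). A dimmer HLA-DOB probe set, with a mean signal of 23.02, gave 0.06 ± 0.28 and was lower in 1 of 4 NIKsh cultures.

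**Figure D2:**
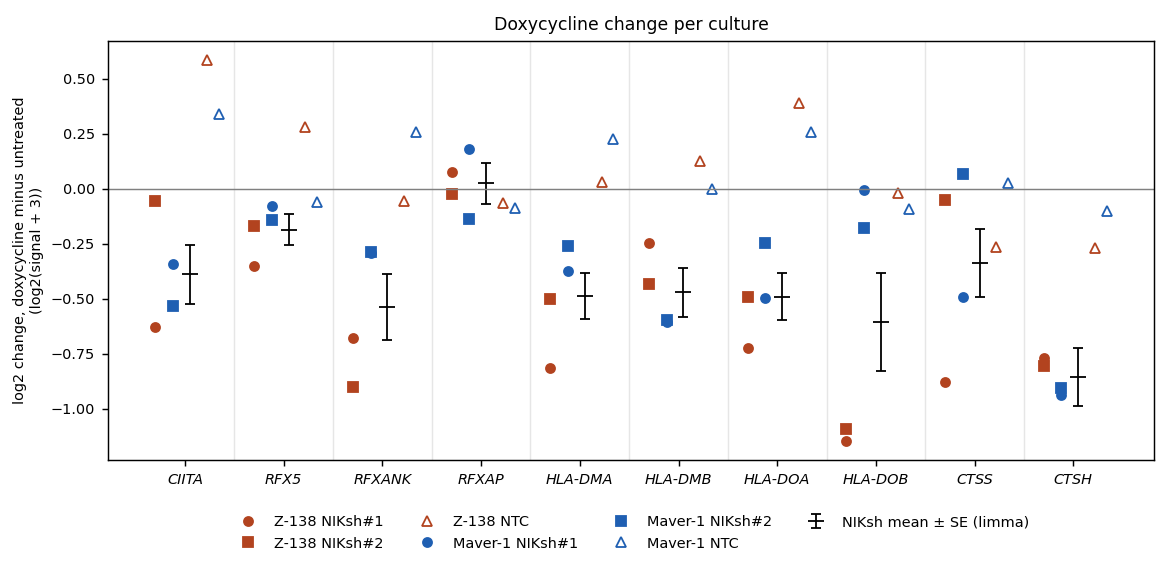
Log2 change of each member in the 6 cultures (filled symbols for NIKsh cultures, open triangles for NTC cultures, colour by line), with the limma mean of the 4 NIKsh cultures and its SE as a bar. In 7 members all 4 NIKsh symbols lie below both NTC triangles, and the HLA-DOB symbols of Z-138 (-1.15 and -1.09) stand apart from those of Maver-1 (-0.01 and -0.18).

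CTSH, a lysosomal protease that trims peptides from their amino end (chr15:78921058-78945046), had the most uniform values. In Z-138 NIKsh#1 and NIKsh#2 it had 30.3 and 29.9 with doxycycline, against 53.8 and 54.6 untreated, and in Maver-1 NIKsh#1 and NIKsh#2 552.8 and 503.3, against 1060.4 and 947.1 untreated. In NTC it had 45.9 with doxycycline, against 55.9 untreated, in Z-138, and 972.0 against 1041.1 in Maver-1. The treated NIKsh signal was 0.563, 0.548, 0.521 and 0.531 of the untreated signal, against 0.821 and 0.934 in NTC, although the lines differed in level. The NIKsh change was -0.86 ± 0.13 (interval -1.15 to -0.56, adjusted p = 0.0863), with an SD over the 4 cultures of 0.08. It passed with no replicate block (adjusted p = 0.0200), with culture as a random block (adjusted p = 0.0275) and with array weights (adjusted p = 0.0275). Under the other alternatives it did not pass in limma. Its adjusted p was 0.0507 with genes averaged over their probe sets and 0.208 with a filter at the 75th percentile of gene mean signals. The difference from NTC was -0.67 ± 0.23 (interval -1.18 to -0.16, adjusted p = 0.878).

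CTSS, the protease that finishes invariant chain cleavage (chr1:150730188-150765778), had no common direction over the NIKsh cultures. With NIKsh#1 it had 369.4 in Z-138 and 447.3 in Maver-1 with doxycycline, against 681.6 and 631.0 untreated. With NIKsh#2 it had 715.4 and 699.5 with doxycycline, against 740.3 and 668.0 untreated, and in NTC 566.1 and 622.0, against 681.2 and 611.5. The changes were -0.88 and -0.49 with NIKsh#1 and -0.05 and 0.07 with NIKsh#2, against -0.27 and 0.02 in NTC, so that NIKsh and NTC overlapped. Over NIKsh cultures the change was -0.34 ± 0.15 (interval -0.68 to 0.003, adjusted p = 0.563) and the difference from NTC -0.22 ± 0.27. The other CTSS probe sets, with mean signals of 412.5 and 167.1, gave -0.40 ± 0.20 and -0.40 ± 0.17, each lower in 3 of 4 NIKsh cultures. Their NTC changes were -0.21 ± 0.28 and -0.45 ± 0.25, and the differences from NTC -0.19 ± 0.34 and 0.04 ± 0.30. In the one with a mean signal of 167.1 the lower values did not follow the hairpin: the change was -0.78 in Z-138 and 0.11 in Maver-1 for NIKsh#1, and -0.504 in Z-138 and -0.445 in Maver-1 for NIKsh#2. A difference between hairpins was not tested.

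**Figure D3:**
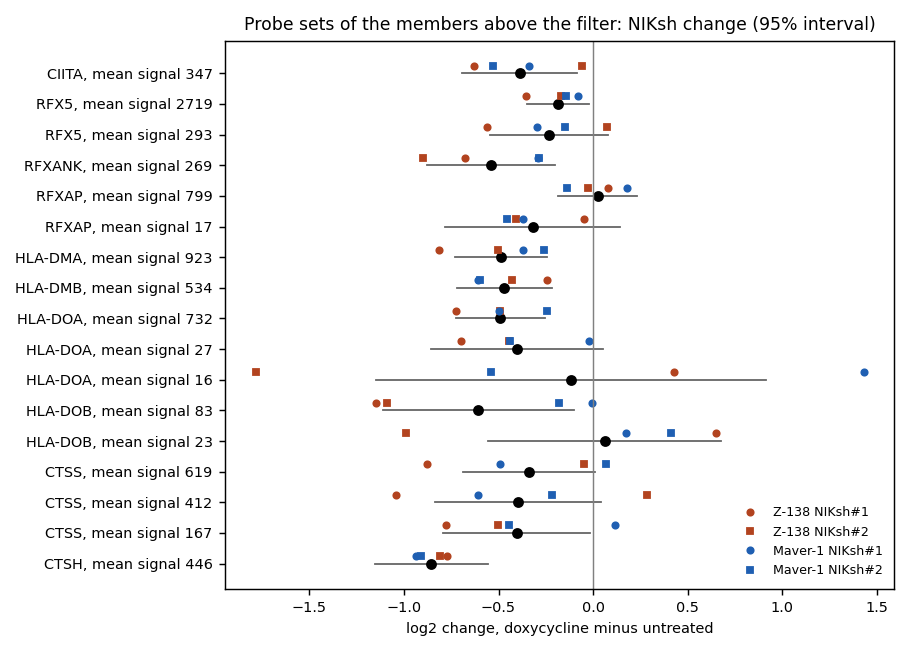
NIKsh change of the 17 member probe sets above the filter, labelled by gene and mean signal over the 12 arrays, with the 95% interval of the limma fit on all probe sets (black) and the 4 NIKsh cultures (coloured). The points of 15 probe sets lie below 0, and the 2 widest intervals belong to probe sets of HLA-DOA and HLA-DOB with mean signals of 15.75 and 23.02.

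Over all 17 probe sets that passed the filter, 15 had a negative NIKsh change, against 47.1% of all probe sets, and 2 a positive one, the bright RFXAP and the dim HLA-DOB probe sets. In the fit over the 27858 probe sets, 0 of the 17 passed (limma, 0.00718% of all probe sets passed), and 9 had an unadjusted p under 0.05, against 8.10% of all probe sets. Of the 6 members with more than 1 probe set, CTSS and RFX5 had all tested probe sets on the same side of 0, as did HLA-DOA, and RFXAP and HLA-DOB did not. Probe sets of a gene share the RNA of the same arrays and are not replicates.

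Against the NTC cultures, 0 members and 0 genes (0.0%) passed in limma, with 627 genes at an unadjusted p under 0.05. Of the members, 7 had an unadjusted p under 0.05 with a lower NIKsh change, against 2.66% of all genes, namely CIITA, RFX5, RFXANK, HLA-DMA, HLA-DMB, HLA-DOA and CTSH. In the same 7 members each NIKsh value was under both NTC values, against 6.45% of all genes. The median difference was -0.58 over the members and -0.03 over all genes. In the NTC cultures themselves 0 members and 0 genes (0.0%) passed, with 387 genes (3.35%) at an unadjusted p under 0.05, and CIITA was the 1 member below that level. The NIKsh change and this difference share the NIKsh arrays, so their counts are not separate evidence.

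By line, the question was whether the members behave alike in the TRAF2-altered and the TRAF3-deleted cells. In Z-138, HLA-DMA fell, with a log2 change of -0.66 ± 0.12 (adjusted p = 0.0331), as did HLA-DOB, with -1.12 ± 0.23 (adjusted p = 0.0431), so that 2 of 10 members passed as lower in limma, against 1.08% of all genes. Close to the threshold in Z-138 were HLA-DOA at -0.61 ± 0.14 and RFXANK at -0.79 ± 0.18 (adjusted p = 0.0613 each) and CTSH at -0.79 ± 0.19 (adjusted p = 0.0708). These tests set treated against untreated NIKsh cultures, and Z-138 NTC stood at 0.03 for HLA-DMA and -0.02 for HLA-DOB. They rest on 2 cultures, and the SE is not their spread alone but is pooled over the NIKsh cultures of both lines. The dimmer HLA-DOB probe set changed by 0.65 in Z-138 NIKsh#1 and by -0.988 in Z-138 NIKsh#2 (-0.17 ± 0.39, limma adjusted p = 0.890 over all probe sets). Adjusted over all probe sets, of which 1.02% passed, neither HLA-DMA (adjusted p = 0.0510) nor the brighter probe set of HLA-DOB (adjusted p = 0.0668) passed. With array weights neither gene passed, and HLA-DMA did not with no replicate block (adjusted p = 0.06). Without Z-138 NIKsh#1, HLA-DMA was at -0.50, the value of Z-138 NIKsh#2 alone. MAP3K14 changed by -0.681 in Z-138 NIKsh#1 and by -0.075 in Z-138 NIKsh#2. In the same order HLA-DMA changed by -0.813 and -0.502, and HLA-DOB by -1.148 and -1.091. In these 2 cultures the ACTB ratio with doxycycline was 4.622 and 5.086, against 2.86 and 2.922 untreated, and in Z-138 NTC it was 6.343 against 2.326.

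In Maver-1, 0 members and 0 genes (0.0%) passed in limma, with 458 genes at an unadjusted p under 0.05. As lower at that level stood 5 members, against 2.19% of all genes: CIITA at -0.44 ± 0.19, HLA-DMA at -0.32 ± 0.12, HLA-DMB at -0.60 ± 0.14, HLA-DOA at -0.37 ± 0.14 and CTSH at -0.92 ± 0.19 (adjusted p = 0.495). Of the difference between lines itself, Z-138 minus Maver-1, 0 members passed, against 0.121% of all genes. HLA-DOB had the largest member value, -1.03 ± 0.32 (interval -1.75 to -0.30, unadjusted p = 0.0109, adjusted p = 0.418), and was the 1 member with an unadjusted p under 0.05, against 8.59% of all genes. RFXANK was at -0.50 ± 0.25, HLA-DMA at -0.34 ± 0.18, and CTSH at 0.13 ± 0.27 with an interval of -0.47 to 0.73.

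Between untreated Z-138 and Maver-1, 7 of the 10 members passed in limma, a share near the 60.2% of all genes that passed, 5 as lower in Z-138 (34.8% of all genes) and 2 as higher (25.5%). CTSH was lower in Z-138 (log2 difference -4.14 ± 0.11, adjusted p = 1.06e-11), and averaged a signal of 54.77 ± 1.06 there, against 1016 ± 60.6 in Maver-1 (SD, n = 3 each), 18.6 times as high in Maver-1. HLA-DMB averaged 394.5 ± 44.7 in Z-138 and 786.9 ± 10.6 in Maver-1 (-0.996 ± 0.10, adjusted p = 2.05e-06). HLA-DOB, in the other direction, averaged 128.0 ± 4.45 in Z-138 and 63.57 ± 9.21 in Maver-1 (0.99 ± 0.16, adjusted p = 0.000110). This call rests on its brighter probe set. The dimmer one, with a mean signal of 23.02, gave 0.10 ± 0.25 (limma, adjusted p = 0.763 over all probe sets).

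RFXANK was also higher in Z-138 (0.65 ± 0.16, adjusted p = 0.00372), with 369.8 ± 51.3 there, against 237.8 ± 52.5 in Maver-1. CIITA was lower in Z-138 at 312.8 ± 23.5, against 393.5 ± 39.1 in Maver-1 (-0.33 ± 0.11, adjusted p = 0.0253), a call lost without any 1 of the 4 NIKsh cultures (adjusted p 0.067 to 0.103). HLA-DMA averaged 888.9 ± 87.6 in Z-138, against 1101 ± 56.2 in Maver-1 (-0.31 ± 0.09, adjusted p = 0.00896), also lost without Z-138 NIKsh#1 (adjusted p = 0.0504). RFX5, RFXAP and CTSS did not pass, with intervals of -0.24 to 0.06, -0.04 to 0.31 and -0.05 to 0.33.

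The line difference of HLA-DOA depended on the probe set. The bright one averaged 645.3 ± 13.2 in Z-138 and 902.6 ± 46.8 in Maver-1 (-0.48 ± 0.08, adjusted p = 0.000462 over all probe sets). The one with a mean signal of 26.96 was higher in Z-138, with 33.2, 34.4 and 43.9 there, against 16.9, 18.1 and 25.4 in Maver-1 (0.80 ± 0.22, adjusted p = 0.00958 over all probe sets). Both sets of 3 cultures were without overlap, in opposite directions. The probe set with a mean signal of 15.75 also had a positive difference (0.71 ± 0.315, limma adjusted p = 0.0782 over all probe sets). Which of the probe sets follows the HLA-DOA transcript was not tested. Without overlap between lines were 9 of 10 members, against 65.8% of all genes.

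**Figure D4:**
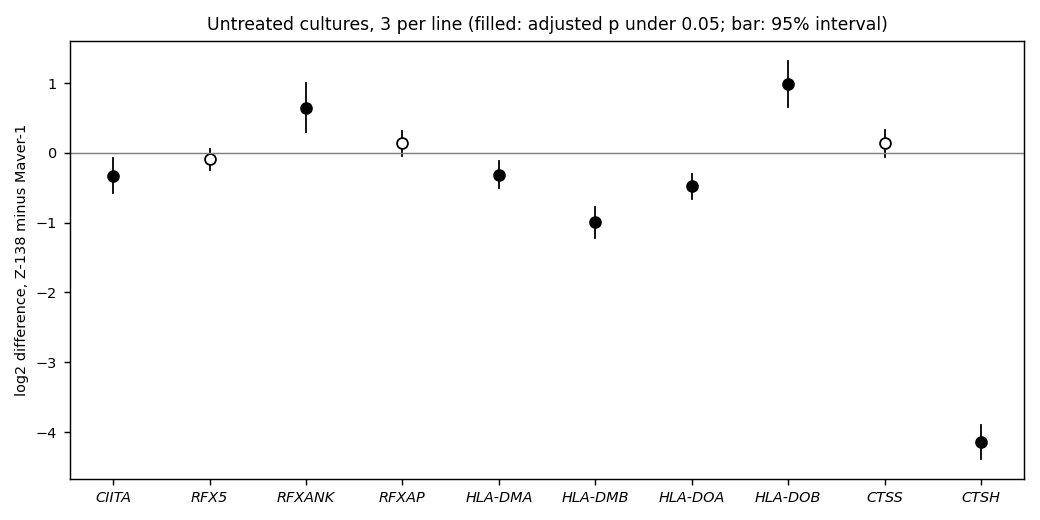
Log2 difference of each member between untreated Z-138 and untreated Maver-1 cultures (3 each), with the 95% interval of the limma model, filled where the adjusted p is under 0.05. CTSH at -4.14 lies far below the other members, which lie between -0.996 and 0.99, and RFXANK and HLA-DOB are the filled points above 0.

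Genes around this pathway were set beside the members. Over all genes tested, 48.3% had a negative NIKsh change and 8.98% an unadjusted p under 0.05, with a median of 0.01, against which the counts of each list below stand. Of the class II chains and invariant chain, 7 of 7 had negative NIKsh changes with a median of -0.26, and 0 passed (limma, 7 at an unadjusted p under 0.05). HLA-DQA1 was at -0.72 ± 0.18, HLA-DQB1 at -0.50 ± 0.13, HLA-DPB1 at -0.32 ± 0.10 and HLA-DPA1 at -0.26 ± 0.08. HLA-DQA1 stood at -1.565 in Z-138 NIKsh#1, and between -0.72 and -0.25 in the other 3 NIKsh cultures. Among the partners of RFX and coactivators, 3 of 9 were negative with a median of 0.08, 0 passed and 0 had an unadjusted p under 0.05, and NFYB, a subunit of the Y box factor, was at 0.20 ± 0.10.

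Regulators of CIITA transcription had no common direction, with 7 of 11 negative, a median of -0.05, 0 passing and 2 at an unadjusted p under 0.05. These 2 were PAX5, the B cell identity factor, at 0.59 ± 0.18 (adjusted p = 0.333) and NFKB1, the p105 precursor of NF-kB p50, at -0.44 ± 0.17 (adjusted p = 0.450). IRF1, which acts on the interferon-responsive CIITA promoter, was at -0.32 ± 0.15 and BCL6, a germinal centre repressor, at 0.54 ± 0.28. These lists, like the members, are described by counts only. Of other lysosomal antigen processing genes 4 of 10 were negative with a median of 0.12 and 0 passed, with LGMN, an asparaginyl endopeptidase, at -0.38 ± 0.14, the 1 gene with an unadjusted p under 0.05. LGMN was at -0.36 in the NTC culture of Z-138 and -0.26 in that of Maver-1 as well. Of class II turnover and sorting genes 1 of 4 was negative, 0 passed and 0 had an unadjusted p under 0.05, and MARCHF1, a ubiquitin ligase that removes class II from the surface, was at 0.38 ± 0.25.

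The genes whose log2 signal followed CIITA most closely over the 12 arrays were GALK2 (Pearson r = 0.947), SNX29 (0.941), BTN2A2 (0.940), ZSCAN32 (0.930) and NFKB2 (0.927), as a description over arrays that share 6 cultures. SNX29 (chr16:11976734-12574287) and ZSCAN32 (chr16:3382085-3401004) lie on the chromosome of CIITA. Among the members HLA-DMA (0.856, rank 44 of 11547 genes) and HLA-DOA (0.835, rank 75) came closest, then RFX5 (0.728), HLA-DMB (0.587), CTSH (0.456) and CTSS (0.368), while HLA-DOB (0.173) and RFXANK (0.059) were far down and RFXAP had -0.487.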

How the data were processed

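Total RNA of 6 cultures, each with and without doxycycline, was hybridised to 12 one-colour Affymetrix U133 Plus 2 arrays. The deposited values are MAS5 signal intensity on a linear scale, 1 value per probe set, made by the authors with MAS5 per the submitters' processing notes. The mean of each array after trimming 2% at each end was the same, so a shift common to all genes would not be seen, and array medians ranged from 10.6 to 14.1. The number of arrays, not read depth, limits the precision.

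Values were taken as log2(signal + 3), with no further normalization. The platform annotation names a single gene for 41097 of 54675 probe sets, several for 1801 and none for 11777. A gene was represented by its brightest probe set (mean log2 signal), and genes with a mean signal under 12.55 were left out, leaving 11548. limma 3.58.1 in R 4.3.3 (intensity trend, Benjamini-Hochberg adjustment over all tested genes, threshold 0.05) was fitted with culture as a block, since each treated array has an untreated array of the same line and hairpin by its label. As a check, the deviations of treated and untreated arrays of a NIKsh culture from their group means correlated at -0.038 for Z-138 and 0.202 for Maver-1. A further fit ran over all probe sets. The text names all members and their probe sets, MAP3K14, up to 4 genes of each other list by smallest p, and the 5 genes closest to CIITA. Members, lists and tests were chosen with earlier results of these data known. Alternatives covered pseudocount, filter, probe set choice, quantile normalization, variance trend, array weights, the block and leaving out each culture. Python 3.11.15, pandas 2.3.3 and matplotlib 3.10.9 were used for summaries and plots, and the tests were tried on simulated data.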

Additional observations from a re-analysis of the deposited data

How the results depend on the processing

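For the NIKsh change, 1 member (CTSH) passed with array weights, with no replicate block and with a random replicate block, against 0 with culture as a fixed block, and 0 passed without any 1 culture. In Z-138, where 2 passed, 1 passed with no filter and 1 with a filter at the 75th percentile, 0 with the mean over probe sets, 0 with no variance trend and 0 with array weights. With no replicate block 4 passed (RFXANK, HLA-DOA, HLA-DOB and CTSH, without HLA-DMA), and with a random replicate block 5. Leaving out a NIKsh culture leaves 1 in its line, with no spread of its own, and the SE then comes from the other line. Only changes are therefore given for the fits per line without 1 culture. In Z-138 they ran from -0.813 to -0.502 for HLA-DMA and from -1.148 to -1.091 for HLA-DOB, and in Maver-1 from -0.936 to -0.908 for CTSH. Between untreated lines 4 passed with the 75th percentile filter and 5 to 7 without 1 culture. The 75th percentile filter left 7 members to test, without CIITA, RFXANK and HLA-DOB. All of these left out had passed between untreated lines, and HLA-DOB had passed in Z-138, so these calls were not tested again. With the mean over probe sets the sign turned for the NIKsh change of CIITA (0.032) and RFXAP (-0.15), the NTC change of HLA-DOA (-0.08), the NIKsh minus NTC difference of RFXAP (-0.084), RFXAP in Z-138 (-0.10), CIITA (0.14), RFXAP (-0.20) and HLA-DOB (0.10) in Maver-1, and HLA-DOA (0.27) and CTSS (-0.004) between untreated lines; this setting gives dim probe sets equal weight. Without 1 culture the sign turned for RFXAP (NIKsh -0.028 to 0.078, Z-138 -0.026 to 0.078, Maver-1 -0.14 to 0.18), CTSS in Maver-1 (-0.494 to 0.066), and the NTC change of RFX5 (-0.06 to 0.28), HLA-DMB (-0.002 to 0.12), CTSS (-0.266 to 0.024) and RFXANK (-0.058 to 0.256), where 1 NTC culture then remains and is assumed to vary like the others. The cause of the other moves was not tested. Under the alternatives 945 member values kept their direction and side of the threshold, 19 newly passed and 15 lost the call. These counts include the fits that leave 1 NIKsh culture in a line. Over all genes, 5 passed for the NIKsh change, against 18 with array weights, 16 with no replicate block, 13 with a random replicate block, 3 with no filter, no trend or the mean over probe sets, 1 with the 75th percentile filter and 0 to 5 without 1 culture. In Z-138 247 genes passed, against 164 with no filter, 98 with the 75th percentile filter, 120 with the mean over probe sets, 23 with no trend and 139 with array weights, and in Maver-1 0 passed. Between untreated lines 6956 passed, against 2999 of 4944 tested with the 75th percentile filter.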
